A study of Saccharomyces cerevisiae with 25 samples.

Results

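The comparison described here set the *OLE1(FAR)* strain of *Saccharomyces cerevisiae* against its wild type YFA1130, with 5 RNA-seq libraries of each, 10 of the 25 libraries of the series. Both strains are in BY, the S288C laboratory background, of mating type a. *OLE1(FAR)* carries the allele of the vineyard strain RM at a single noncoding position between *SDS23* and *OLE1*, and YFA1130 has the BY allele there. YFA1130 had itself been edited with CRISPR-Swap, to take the GFP tag off *FAA4*. Each strain is one clone and its libraries come from separate cultures in synthetic glucose medium. The other libraries are of *OAF1(L63S)*, of *RGT2(V539I)* and of a further wild type, YFA1131, which was made by putting the BY *RGT2* allele back in place of a deletion. They enter below only as terms of the fit or to show where a value lies.

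*OLE1* encodes the only fatty acid desaturase of yeast, which makes the unsaturated chains of membrane lipids. Its transcription is driven by Mga2 and Spt23, which are anchored in the ER membrane and are released from it by ubiquitin-dependent processing when membrane lipids become too saturated. Genes that respond with *OLE1* to low oxygen often share a short DNA element, the LORE (low oxygen response element), through which Mga2 acts.

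In the sacCer3 (R64) reference, an allele-specific oligo of the study for BY matched the genome once, and its RM counterpart differed from it at a single base. That difference is the substitution A398081G on chromosome VII, counted along the chromosome (reference base first). It lies 547 bp before the start of *OLE1* (YGL055W, chrVII:398628-400160) and 463 bp before the start of *SDS23* (YGL056C, chrVII:396035-397618), in an intergenic stretch of 1009 bp. The oligos and the site are shown because they define the strain, and the LORE upstream of *OLE1* because it lies in the same intergenic stretch. The oligos read the reverse strand, and capitals mark the variant base in the first 3 lines and the LORE in the fourth.
BY oligo (chrVII:398076-398095, reverse strand): cagataagcgccttTgttgg
RM oligo (same position): cagataagcgccttCgttgg
BY reference around the site (chrVII:398051-398111, forward strand): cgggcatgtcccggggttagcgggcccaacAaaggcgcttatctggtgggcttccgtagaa
LORE upstream of *OLE1* (chrVII:398260-398318, forward strand): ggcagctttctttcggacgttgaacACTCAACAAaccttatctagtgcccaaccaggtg

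The LORE letters ACTCAACAA, searched on both strands, were found once within 500 bp upstream of *OLE1*. Of 5564 tested genes with such a window, 22 (0.395%) held them. They were in 0 of the 35 windows of the genes that rose and in 0 of the 10 of the genes that fell, which says only that these exact letters are not in those windows. Over the variant, the best match of the BY sequence to these letters had 7 of 9 in common, and that of the RM sequence 6 of 9. These are descriptions of letters and not of binding.

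Total estimated counts were between 10127168 and 14644996 in the 10 libraries. Of the genes deleted in this BY background, *LEU2*, *URA3* and *MET17* had 0 counts in all 10 libraries. *HIS3*, which BY lacks in part, was at 79.7 to 114 CPM. The a-type receptor gene *STE2* was at 1142 to 1282 CPM (counts scaled to a common library size after TMM normalisation, the unit of all levels below), while the alpha-type receptor gene *STE3* was at 2.18 to 5.32 CPM. Of the other alpha-type markers, *MF(ALPHA)1* was at 0.456 to 2.04 CPM, but *SAG1* was not low, at 36.6 to 47.2 CPM. The a-type marker *AGA2* was at 64.9 to 92.1 CPM. The a-factor genes *MFA1* and *MFA2*, which also define a cells, were listed at 0 in all 10.

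One library stood apart, the one labelled *OLE1(FAR)* culture 3C, so the genes called are given with and without it. Values of genes that were not called, list medians and list counts are without it unless stated. For *IZH4* it was at 2.44 CPM, where the other 4 *OLE1(FAR)* libraries were at 45.3 to 50.7 and 4 of the *OAF1(L63S)* libraries at 2.63 to 3.67. For *POX1*, the peroxisomal acyl-CoA oxidase, also named with its values known, it was at 28.4 CPM, against 0.42 to 2.01 in the others of its label, 0.648 to 2.84 in YFA1130 and 16.9 to 22.9 in those same *OAF1(L63S)* libraries. The remaining *OAF1(L63S)* library, culture 2A, was at 47.5 CPM for *IZH4* and 1.58 CPM for *POX1*. Libraries are kept under their labels throughout, and whether tubes were exchanged was not tested.

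The same held across the genes called. Of the 46 genes that differed between the strains without 3C, this library was outside the range of the other 4 in 42. Among the 36 that were higher, it was below the lowest of the other 4 in 30, and at or below the highest YFA1130 library in 30. Averaged over the 46 genes, each signed by its direction, culture 3C was 0.20 below the YFA1130 mean on the log2 scale (-0.20), while the other 4 were 0.47 to 0.55 above it and 2A was 0.49 above it. The genes were chosen with the other 4 *OLE1(FAR)* libraries in the fit, so the height of those 4 is given by the choice.

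**Figure D1:**
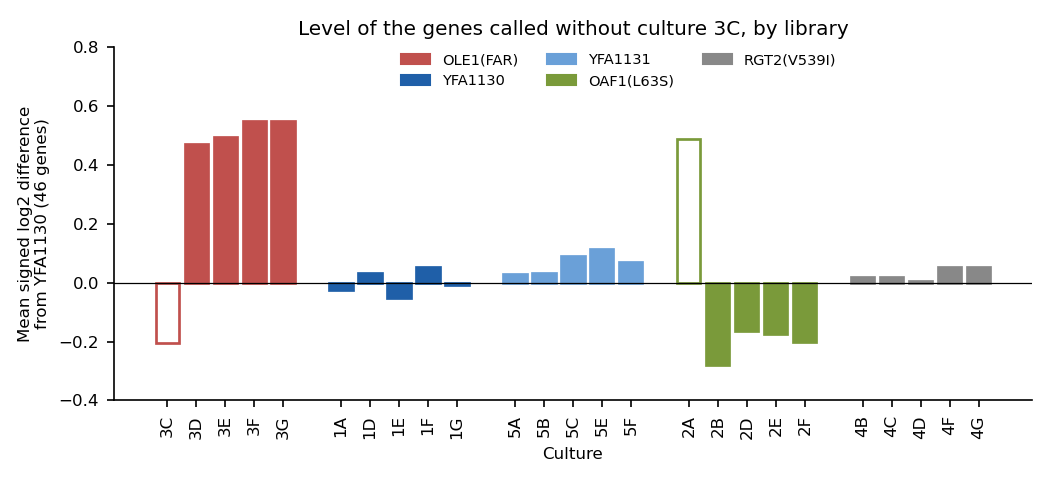
Mean signed log2 difference from the YFA1130 mean (y axis) over the 46 genes called without culture 3C, for each of the 25 libraries (x axis, culture codes, coloured by label). The open bars are culture 3C, at -0.20, and the *OAF1(L63S)* culture 2A, at 0.49. The filled *OLE1(FAR)* bars, at 0.47 to 0.55, are high by the way the genes were chosen.

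One edgeR quasi-likelihood model was fitted over the 25 libraries, with genotype, harvest, RNA isolation and library preparation batch and 2 surrogate variables (estimated unknown factors) as terms. At an FDR of 10% (Benjamini-Hochberg), 35 genes of 5713 tested were higher in *OLE1(FAR)* (0.613%) and 12 were lower (0.21%). Without culture 3C, 36 of 5714 were higher (0.63%) and 10 lower (0.175%). These shares stand beside every count of called list members below. The fits shared 41 genes with the same sign, so 6 were called only with 3C and 5 only without it. Without 3C, called log2 fold changes ran from -2.11 to -0.21 and from 0.16 to 1.72, and the median standard error over all genes was 0.062.

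The surrogate variables matter to these counts. Without them, the fit without 3C called 7 genes, and 32 when *OAF1(L63S)* culture 2A was left out too, 23 higher (0.402%) and 9 lower (0.157%). Of those 32, 31 were among the 46. The fit that kept 3C called 5 genes without surrogate variables. With these variables kept, 3C was at 0.32 on the second, and libraries other than 3C and 2A were at -0.41 to 0.31. Fold changes given with 3C come from that fit and are not ratios of 5-library means. For *MGA2* these means were 256 CPM against 206 in YFA1130, and its log2 fold change ran from 0.26 to 0.70 over the alternatives. For *PLB2* they were 221 against 193, with 0.12 to 0.43. Of the 46 genes, 18 had fractional estimated counts in over 5 libraries, which arise where a read fits several similar transcripts, and 28 did not (24 higher, 4 lower). The call held in each of the 9 fits that left out 1 further library for 24 of the 46, of which 13 had whole counts.

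As a description of the raw levels, all 4 *OLE1(FAR)* libraries other than 3C were above all 5 of YFA1130 for 46 of the 5714 genes (0.805%) and below them for 33 (0.578%). Such separation was seen for 26 of the 36 genes called higher and for 9 of the 10 called lower.

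Of all genes called, *IZH4* rose most. *IZH4* (YOL101C, chrXV:126982-127920) encodes a membrane protein of the PAQR family linked to sterol and zinc metabolism. Its level was 45.3, 50.7, 47.1 and 49.3 CPM in cultures 3D, 3E, 3F and 3G, 2.44 in 3C, and 11.1, 15.1, 18.3, 13.7 and 19.6 in YFA1130 cultures 1A, 1D, 1E, 1F and 1G. Without 3C the groups were far apart, and 3C was below every YFA1130 library. The log2 fold change was 1.72 without 3C (standard error 0.18, edgeR adjusted p = 4.24e-05) and 1.63 with it (standard error 0.16, edgeR adjusted p = 8.33e-06). Without 3C and without surrogate variables it was 1.66 and did not pass (edgeR adjusted p = 0.543), while with 2A also left out it passed (edgeR adjusted p = 1.31e-08).

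*MGA2* (YIR033W, chrIX:416124-419465), the gene for the *OLE1* activator itself, followed the same order. It was at 281, 315, 283 and 284 CPM in 3D, 3E, 3F and 3G, 119 in 3C, and 199, 208, 204, 229 and 189 in the YFA1130 cultures 1A, 1D, 1E, 1F and 1G. The groups did not overlap without 3C. The log2 fold change was 0.55 (standard error 0.07, edgeR adjusted p = 0.000701) without 3C and 0.52 (edgeR adjusted p = 0.000169) with it. Its partner *SPT23* did not pass the test, at a log2 fold change of 0.01. Without 3C, 0.63% of all genes tested were called higher. Of 11 genes of the desaturase and its Mga2 and Spt23 control, *MGA2* was the only one called in either fit. The others include *UBX2*, an ER protein that recruits Cdc48 to that processing step (0.20), *CDC48* (0.08) and the ubiquitin ligase gene *RSP5* (0.06).

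Other genes of the *IZH* family rose with *IZH4*. *IZH2* (YOL002C) was at 147 ± 8.13 CPM (SD, n = 4) without 3C against 110 ± 13.2 (SD, n = 5) in YFA1130, and *IZH1* (YDR492W) at 105 ± 6.6 against 84.3 ± 6.7. In 3C they were at 93.4 and 78.7 CPM. Both had a log2 fold change of 0.40 without 3C (edgeR adjusted p = 0.00865 for *IZH2* and 0.00387 for *IZH1*), and 0.39 and 0.38 with it (edgeR adjusted p = 0.0026 and 0.0013). For both, all 4 libraries were above all 5 of the wild type. *IZH3* was at 0.15 and did not pass. Of the 16 genes of the family and of zinc uptake and storage, these 3 were called, beside 0.63% of all genes tested called higher. *IZH2* and *IZH4* were reference genes set beforehand, so this count is partly given by the choice. No transporter gene was called: *ZRT1*, for high-affinity zinc uptake, was at 0.05, and *ZAP1*, for the zinc-responsive activator, at 0.15.

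The edited locus itself is given for reference. *OLE1* was at 968 ± 67.7 CPM (SD, n = 4) without 3C and at 1009 ± 155 (SD, n = 5) in YFA1130, a log2 fold change of -0.13 without 3C (standard error 0.06, edgeR adjusted p = 0.594) and -0.10 with it. *SDS23* was at 0.07 and 0.06. Of the genes centred within 10000 bp of the site 10 were tested, and none passed. The lowest unadjusted p in edgeR was that of *OLE1*, 0.0259.

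**Figure D2:**
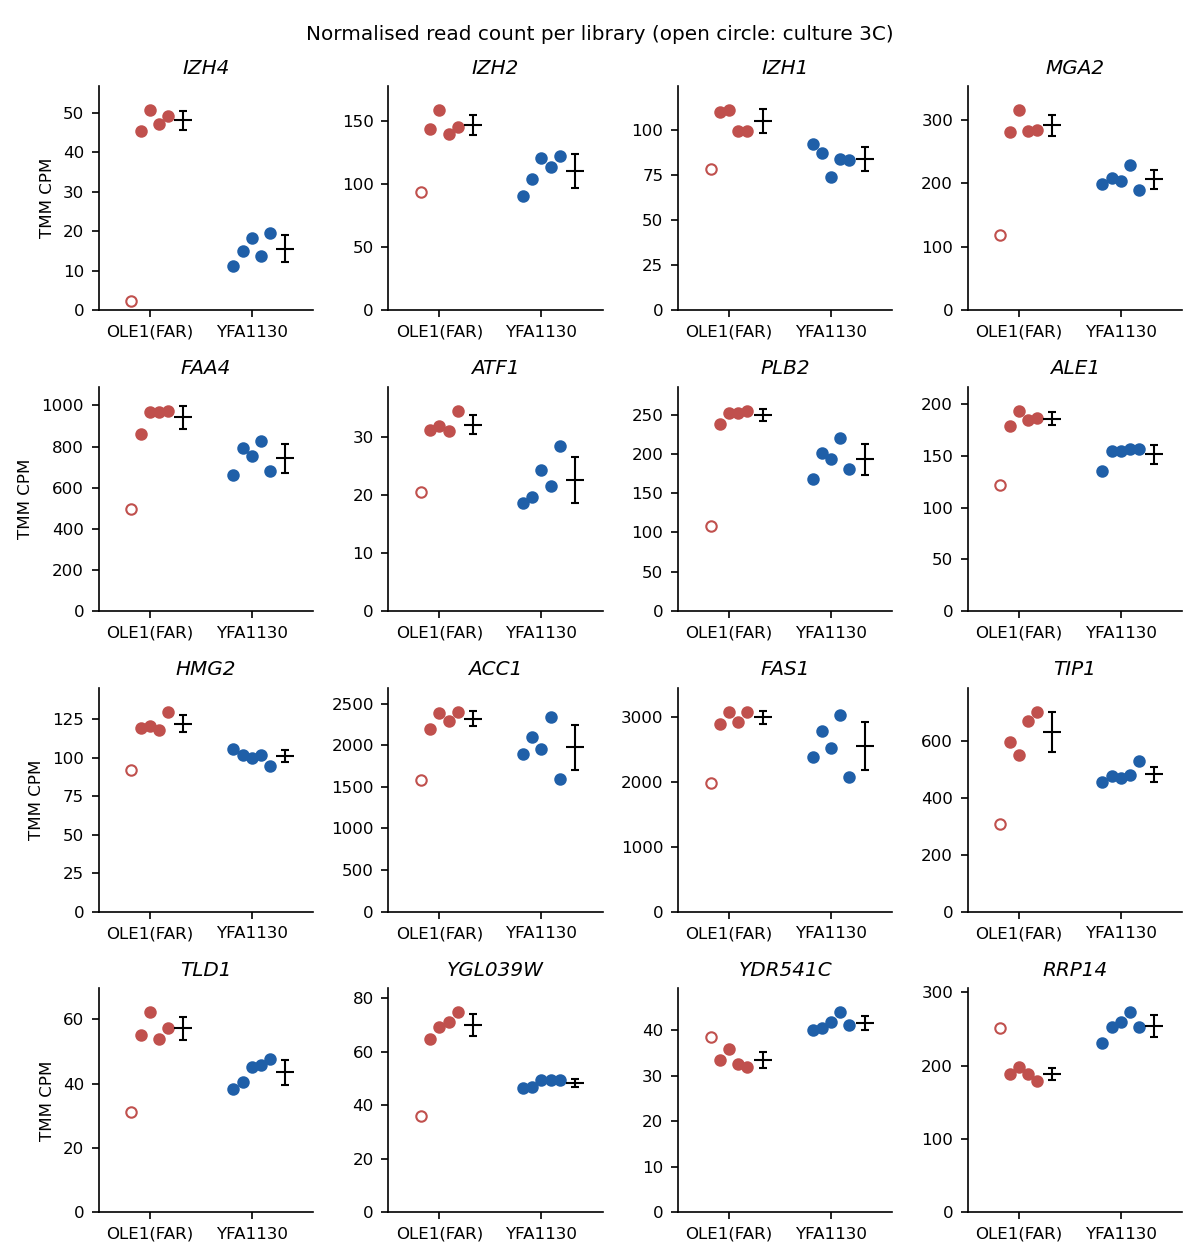
Normalised read count (y axes, TMM CPM, from 0) of 16 genes in each *OLE1(FAR)* library (red) and each YFA1130 library (blue); bars give the mean ± SD, for *OLE1(FAR)* without culture 3C, which is the open circle. For *IZH4*, the red points other than 3C are at 45.3 to 50.7 and the blue at 11.1 to 19.6, while for *RRP14* the red points other than 3C are below all blue ones.

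In fatty acid activation and synthesis all called genes rose but *FAA1*. Only the call of *FAA4* held in each of the 9 fits that left out 1 further library. *FAA4* (YMR246W, chrXIII:759807-761891), which encodes a long-chain acyl-CoA synthetase, was at 860, 968, 967 and 974 CPM in 3D, 3E, 3F and 3G, 496 in 3C, and 663, 792, 752, 829 and 682 in 1A, 1D, 1E, 1F and 1G. The lowest of the first 4 was above the highest wild-type library, and 3C was below all 5. The log2 fold change was 0.36 without 3C (standard error 0.06, edgeR adjusted p = 0.00675) and 0.31 with it (edgeR adjusted p = 0.0055).

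*FAA1* (YOR317W), the gene for the main acyl-CoA synthetase of growing cells, had the opposite sign. It was at 276, 243, 295 and 352 CPM in 3D, 3E, 3F and 3G, and at 334, 280, 318, 264 and 376 in 1A, 1D, 1E, 1F and 1G. These ranges overlap, and the fitted log2 fold change of -0.21 (edgeR adjusted p = 0.0206) without 3C depends on the surrogate variables: without 3C, 2A and those variables it was -0.08 (edgeR adjusted p = 0.93). It was -0.16 with 3C (edgeR adjusted p = 0.27). Without culture 3D it did not pass either (edgeR adjusted p = 0.272). Of 8 genes for fatty acid activation and uptake these 2 were called, beside 0.63% of all genes tested called higher and 0.175% called lower.

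In de novo synthesis, 3 of 17 genes were called without 3C, all higher, beside 0.63% of all genes tested. The list median was 0.05. *ACC1* (YNR016C), for acetyl-CoA carboxylase, the first committed step, was at 2198, 2383, 2296 and 2406 CPM in 3D, 3E, 3F and 3G and 1583 in 3C, against 1895, 2104, 1951, 2335 and 1594 in 1A, 1D, 1E, 1F and 1G. *FAS1*, the beta subunit of fatty acid synthase, was at 2999 ± 101 (SD, n = 4) without 3C and 2558 ± 368 (SD, n = 5) in YFA1130. For both genes the wild-type libraries spread widely and the groups overlap.

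Their log2 fold changes were 0.25 and 0.24 without 3C (edgeR adjusted p = 0.0785 and 0.082) and 0.26 and 0.25 with it (0.056 and 0.058). *ELO1*, which elongates medium-chain acids, was at 0.35 without 3C (edgeR adjusted p = 0.0842) and 0.31 with it (0.13). *FAS2*, for the alpha subunit, was at 0.18 and did not pass. These calls are close to the threshold. Those of *ACC1* and *FAS1* were each lost in 8 of the 9 fits that left out 1 further library (all but 3F). That of *ELO1* was lost in 6 (3D, 3E, 3G, 1D, 1F or 1G). Without 3C, 2A and the surrogate variables, *ACC1*, *FAS1* and *ELO1* did not pass. They were then at 0.19, 0.17 and 0.34 (edgeR adjusted p = 0.84, 0.84 and 0.20).

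Single genes of lipid remodelling and ester synthesis were called. *PLB2* (YMR006C, chrXIII:277561-279681), a phospholipase B gene, was at 238, 252, 252 and 255 CPM in 3D, 3E, 3F and 3G, 109 in 3C, and 168, 201, 194, 220 and 181 in 1A, 1D, 1E, 1F and 1G. The 4 libraries lay close together, above every wild-type library. Its log2 fold change was 0.38 without 3C (standard error 0.06, edgeR adjusted p = 0.00144) and 0.37 with it (edgeR adjusted p = 0.00029). Its counts were not whole in 6 of the 25 libraries, so a small share of its reads can belong to related genes.

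*ALE1* (YOR175C, chrXV:659815-661674), a lysophospholipid acyltransferase gene that puts acyl chains back on phospholipids, was at 179, 194, 185 and 187 CPM in 3D, 3E, 3F and 3G, 122 in 3C, and 135, 155, 154, 157 and 157 in 1A, 1D, 1E, 1F and 1G. The groups did not overlap without 3C. The log2 fold change was 0.28 without 3C (standard error 0.05, edgeR adjusted p = 0.00711) and 0.27 with it (0.0012). Among 21 glycerolipid and lipid droplet genes it was the only one called without 3C. *NEM1*, for the phosphatase that activates the Pah1 lipin, was called only with 3C, at 0.22 (edgeR adjusted p = 0.061) against 0.21 without (0.22).

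*ATF1* (YOR377W), the alcohol acetyltransferase gene that makes acetate esters and is repressed by unsaturated fatty acids, was at 31.1, 31.8, 31 and 34.4 CPM in 3D, 3E, 3F and 3G, 20.4 in 3C, and 18.5, 19.6, 24.3, 21.5 and 28.4 in the wild type. It did not overlap without 3C, with a log2 fold change of 0.40 (standard error 0.08, edgeR adjusted p = 0.0106) and 0.45 with 3C (0.0042). Without culture 3E or 3G the call was lost. It was 1 of 5 genes of ester synthesis, of which no other was called, beside 0.63% of all genes tested called higher.

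*TLD1* (YDR275W), whose product sits on lipid droplets, was at 57.1 ± 3.6 CPM (SD, n = 4) without 3C, 31 in 3C, and 43.5 ± 3.89 (SD, n = 5) in the wild type. A log2 fold change of 0.40 was found without 3C (edgeR adjusted p = 0.000717) and 0.36 with it (0.0012), and the groups did not overlap. *HMG2*, one of the isozymes of HMG-CoA reductase in sterol synthesis, was at 122 ± 5.36 against 101 ± 3.96 CPM, a log2 fold change of 0.32 in both fits (edgeR adjusted p = 0.0815 without 3C and 0.033 with it). It was the only one of 26 ergosterol genes called, and the call was lost in 7 of the 9 fits that left out 1 further library (all but 3F and 1E). The median over the list was -0.01.

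Of the 23 tested hypoxic and anaerobic genes, 3 were called, all higher (*IZH4*, *HMG2* and *TIP1*), beside 0.63% of all genes tested. *IZH4* was a reference gene set beforehand, so this count is partly given by the choice. Each of these genes is also counted in another list. *TIP1* (YBR067C), a cell wall mannoprotein gene induced by cold, was at 595, 548, 670 and 702 CPM in 3D, 3E, 3F and 3G, 306 in 3C, and 455, 474, 469, 480 and 527 in 1A, 1D, 1E, 1F and 1G. Without 3C the groups were apart. The log2 fold change was 0.40 (standard error 0.05, edgeR adjusted p = 0.000106) without 3C and 0.38 (3e-05) with it. Other members were not called, such as *ROX1*, the hypoxic repressor (0.13), *HEM13*, a heme synthesis gene (0.11), and *TIR1* (-0.37). The median over the list was 0.07, beside 0.01 over all genes tested. Against YFA1131 without 3C it was -0.03, and the wild types themselves differed by a median of 0.07, YFA1131 against YFA1130. *TIP1* was also the only one of 39 tested cell wall mannoprotein genes called.

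Outside the lipid lists and among genes with whole counts, the largest rise was that of *COS10* (YNR075W, chrXIV:779916-781040), of a subtelomeric family of membrane proteins. It was at 24.3, 28.4, 29.1 and 31.4 CPM in 3D, 3E, 3F and 3G, 7.94 in 3C, and 15.5, 17.3, 18.1, 20.9 and 15.6 in 1A, 1D, 1E, 1F and 1G. The groups did not overlap without 3C, and its counts were whole in all 25 libraries. Its log2 fold change was 0.72 without 3C (standard error 0.10, edgeR adjusted p = 0.000472) and 0.69 with it (0.00017).

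A pair of related NADPH-dependent aldehyde reductase genes moved in opposite directions. *YGL039W* (chrVII:423961-425007) was at 64.8, 69.4, 71.1 and 74.7 CPM in 3D, 3E, 3F and 3G, 36.2 in 3C, and 46.5 to 49.6 in YFA1130. Its log2 fold change was 0.55 without 3C (standard error 0.06, edgeR adjusted p = 8.8e-05) and 0.56 with it (9.8e-06). *YDR541C* (chrIV:1519664-1520698) was at 33.4, 35.7, 32.6 and 31.8 CPM, 38.5 in 3C, and 40.1 to 43.9 in YFA1130. It fell, at -0.28 without 3C (standard error 0.06, edgeR adjusted p = 0.0367) and -0.30 with it (0.008). Neither overlapped the wild type without 3C. The call of *YDR541C* was lost in 6 of the 9 fits that left out 1 further library (3D, 3E, 3G, 1E, 1F or 1G), and that of *YGL039W* in none of them.

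Further rises were of genes at low levels. *YHK8*, for a presumed drug transporter, was at 15.6 ± 1.41 CPM (SD, n = 4) against 10.8 ± 2.11 (SD, n = 5), a log2 fold change of 0.50 without 3C (edgeR adjusted p = 0.00514) and 0.44 with it (0.012). *GDH3*, a glutamate dehydrogenase gene, was at 0.55 (edgeR adjusted p = 0.0528) and 0.50 (0.06). *TDA4* was at 0.41 (0.0708) and 0.39 (0.038), and *YMR181C*, an uncharacterised gene, at 0.33 (0.0474) and 0.32 (0.02). Calls of these last 3 were lost in 6, 8 and 6 of the 9 fits without 1 further library, in each of them without 3D, 3E, 3G, 1E or 1G.

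*PCL8*, a cyclin gene of the Pho85 kinase, and *TMT1*, a methyltransferase gene, passed only without 3C, at 0.35 (edgeR adjusted p = 0.0727) and 0.24 (0.0785), and were at 0.31 (0.10) and 0.21 (0.22) with it. Their groups overlapped, and the calls were lost in 8 (all but 3F) and 6 (3D, 3G, 1A, 1D, 1E or 1G) of the 9 such fits. *IMD2*, for IMP dehydrogenase, was at 0.25 (edgeR adjusted p = 0.0013) and 0.24 with 3C (0.00071), the only call among 19 purine genes. Its counts were whole in 0 of 25 libraries, so it cannot be told apart from its near copies. Against YFA1131 its log2 fold change was 0.07 (edgeR adjusted p = 0.9).

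Named after their values were seen, *POR1*, the mitochondrial outer membrane porin gene, *SND1*, of an ER targeting route, and *HEM15*, for ferrochelatase, rose by 0.22 (edgeR adjusted p = 0.00173), 0.22 (0.0268) and 0.16 (0.0897) on the log2 scale without 3C. With 3C they were at 0.19, 0.22 and 0.16 (edgeR adjusted p = 0.0026, 0.011 and 0.038). Leaving out 1 further library lost the call of *SND1* in 4 fits (3E, 3G, 1E or 1G), that of *HEM15* in all 9 and that of *POR1* in none. The *POR1* libraries overlapped, at 628 to 737 CPM without 3C and 531 to 782 in YFA1130.

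Among the 4 lower genes with whole counts, *RRP14* had the lowest adjusted p. *RRP14* (YKL082C, chrXI:281025-282329) encodes a nucleolar protein of ribosome assembly. It was at 189, 199, 189 and 179 CPM in 3D, 3E, 3F and 3G, 251 in 3C, and 231, 253, 260, 273 and 253 in 1A, 1D, 1E, 1F and 1G. The 4 libraries lay below all of YFA1130, and 3C within its range. The log2 fold change was -0.41 in both fits (standard error 0.04 without 3C, edgeR adjusted p = 6.14e-06; 1e-06 with it). The call was kept in all 25 alternatives to the fit without 3C, and lost in 2 of the 26 to the fit with it. It was not shared with other genes of its function: of 49 ribosome biogenesis genes in the list none was called, and their median was 0.00.

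*MRX7*, a mitochondrial protein gene named after its values were seen, was near the low end of detection, at 2.16 ± 0.534 CPM (SD, n = 4) against 3.49 ± 0.438 (SD, n = 5), a log2 fold change of -0.91 (edgeR adjusted p = 0.0157) and -0.84 with 3C (0.014). Without 3D or 3G it did not pass. *URA4*, of pyrimidine synthesis, was called only with 3C (-0.15, edgeR adjusted p = 0.064), and against YFA1131 without 3C its sign turned, to 0.11.

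Most falls were at chromosome ends, but mainly in genes with fractional counts. Among the 4 lower genes with whole counts, *YDR541C* was the only one near an end. The other lower genes near an end had fractional counts, so similar copies can share their reads and are not separate results. Of the 10 genes that were lower without 3C, 7 (70%) lay within 30000 bp of an end, *YDR541C* among them, and of the 35 higher ones with a position 6 did (17.1%), against 290 of the 5563 tested genes with a position (5.21%). At the left end of chromosome VIII are *YHL050C* and *COS8*, named after their values were seen. *YHL050C* (chrVIII:445-3311) was at 17, 10.6, 6.89 and 9.19 CPM in 3D, 3E, 3F and 3G, 43.6 in 3C and 42.4 to 51.9 in YFA1130. *COS8* (chrVIII:6401-7546), next to it, was at 10.2 to 12.5 CPM, 29.8 in 3C and 29.6 to 38.4 in YFA1130. The *OAF1(L63S)* culture 2A was at 15.1 and 10.8 CPM for these genes, and the other 4 of its label were at 31 to 39.5 and 21.3 to 26.1.

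Their log2 fold changes without 3C were -2.11 (edgeR adjusted p = 2.72e-08) and -1.75 (1.34e-08), and -1.98 and -1.68 with it. Further from the end, *ARN2* at 8351 to 10213 was at -0.34 (edgeR adjusted p = 0.146) and *ARN1* at 19088 to 20971 at -0.06, both siderophore transporter genes with whole counts. Counts of *YHL050C* and *COS8* were whole in 2 and 1 of 25 libraries, so their reads are shared with other subtelomeric copies, and for the 4 *YRF1* helicase genes and the transposon genes among the 46 no fold is given for the same reason. A loss of DNA at this end and lower transcription cannot be told apart here.

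**Figure D3:**
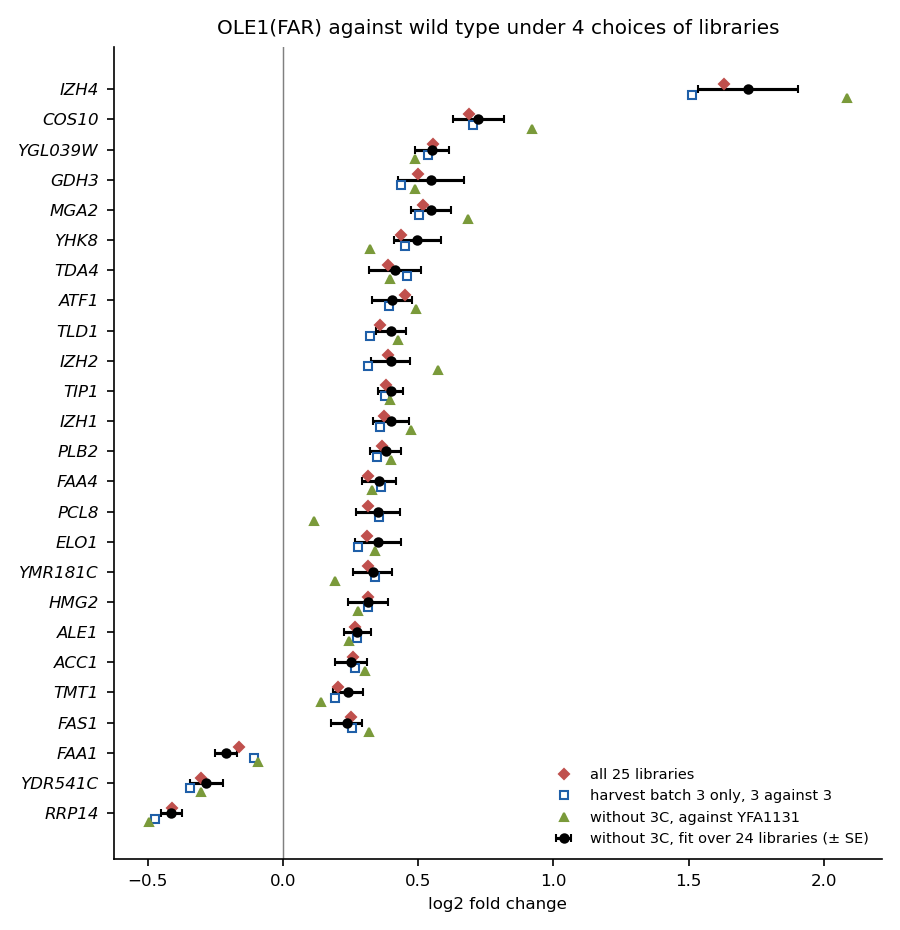
Log2 fold change (x axis) of 25 genes (y axis) that passed the FDR with or without 3C: without 3C against YFA1130 (black, ± SE), with all 25 libraries (red), within harvest batch 3 only (open squares, 3 libraries a strain) and without 3C against YFA1131 (triangles). Among the genes drawn, signs are the same in all 4. Closest to 0 against YFA1131 are *FAA1*, *PCL8*, *TMT1* and *YMR181C*, at -0.09, 0.12, 0.14 and 0.19. Not drawn are *IMD2*, *NEM1* and *URA4*, which also passed with or without 3C. Against YFA1131 they were at 0.07, 0.36 and 0.11, and *URA4* turned sign there, from -0.14.

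The strains could be compared inside one harvest batch, the third, which holds cultures 3E, 3F and 3G and the wild-type cultures 1E, 1F and 1G. All 46 genes called without 3C kept their sign there in a fit with genotype alone. These libraries also took part in choosing the genes, so the signs are in large part given by the choice. With 3 libraries a strain this fit called 7 genes. Log2 fold changes within it were 1.51 for *IZH4*, 0.50 for *MGA2*, 0.36 for *FAA4*, 0.35 for *PLB2* and -0.47 for *RRP14*. Harvest batch 2 has 1 library of each strain other than 3C, cultures 3D and 1D. In these the log2 ratios were 1.59, 0.43, 0.12, 0.24 and -0.42 for the same genes, with no replicate. Harvest batch 1 holds YFA1130 culture 1A and no *OLE1(FAR)* library, so 1A has no counterpart within its batch.

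Set against YFA1131, which shares neither its CRISPR-Swap site nor its cultures with YFA1130, *OLE1(FAR)* without 3C gave the same sign for all 46 genes, and 31 of them passed the FDR. These comparisons share the *OLE1(FAR)* libraries. *IZH4* was at 2.09 (edgeR adjusted p = 1.2e-05), *MGA2* at 0.68 (0.00011), *TIP1* at 0.40 (0.0002) and *RRP14* at -0.50 (1.5e-06). Among those that did not pass were *YHK8*, *HMG2* and *GDH3* (0.32, 0.28 and 0.49, edgeR adjusted p = 0.22, 0.24 and 0.15). For *TIP1*, which passed, the levels overlapped, at 548 to 702 CPM in *OLE1(FAR)* without 3C and 384 to 627 in YFA1131.

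Across the pathways, 11 of 40 gene lists held a gene called without 3C, and in none did more than 3 members pass. None of 18 beta-oxidation genes, 28 peroxisome biogenesis genes or 4 oleate response regulator genes was called, and their medians were -0.02 for each list, beside 0.01 over all genes. There was also no call among 28 genes of inositol and phospholipid synthesis (median 0.00), 28 of sphingolipid synthesis (-0.02), 32 of the unfolded protein response (0.02), 31 antioxidant genes (0.00), 26 of glycolysis and fermentation (0.03), 32 of iron uptake and use (-0.01) and 31 of multidrug transport and membrane asymmetry (0.05).

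**Figure D4:**
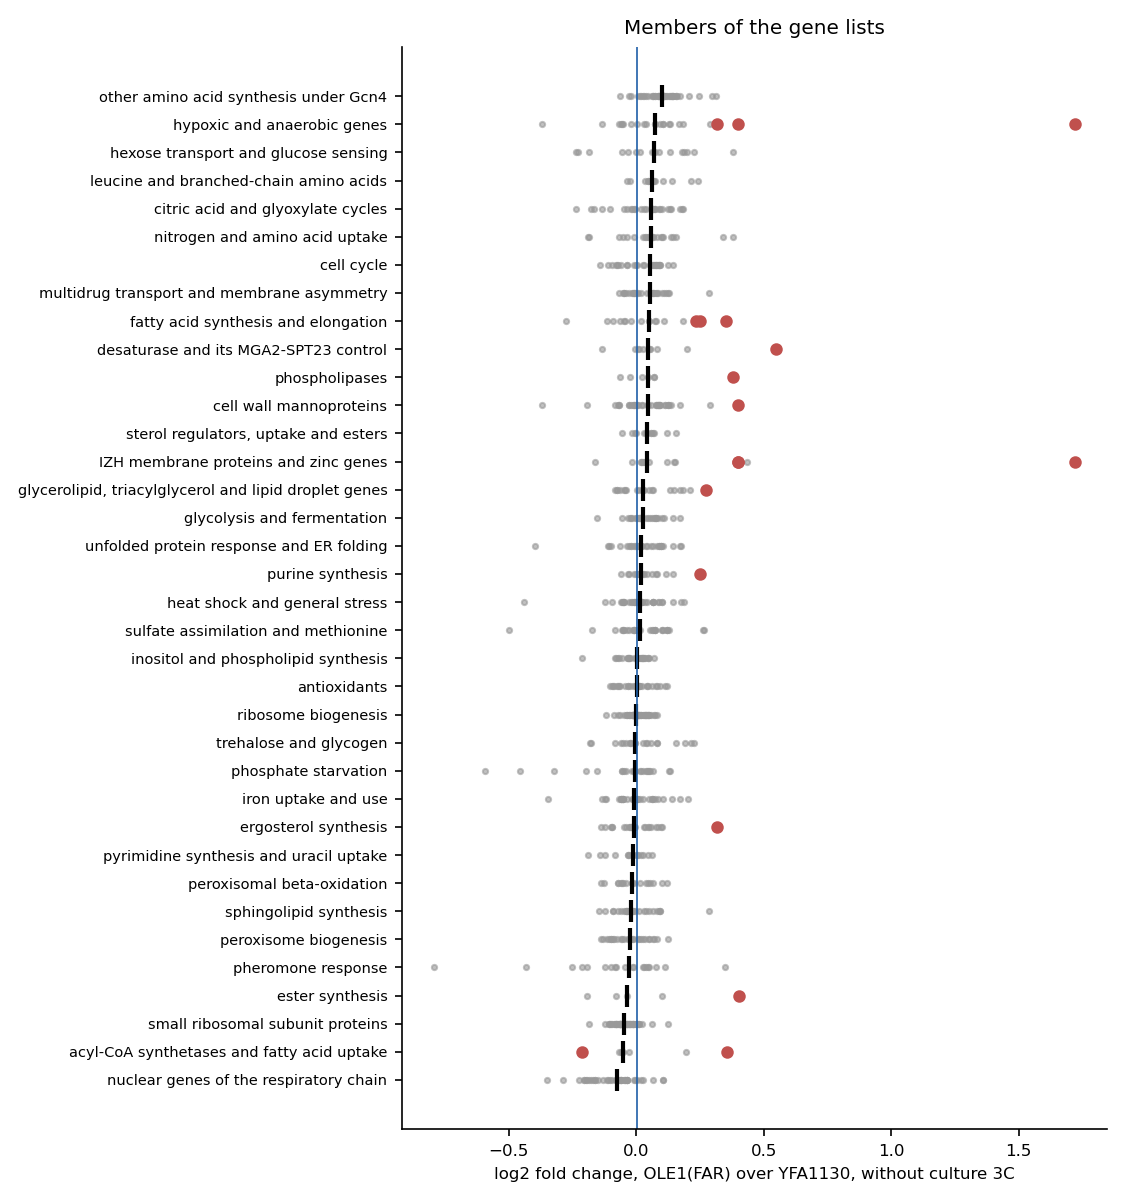
Log2 fold change without culture 3C (x axis) of each tested gene of the lists with at least 5 tested genes (y axis); red points passed the FDR, grey ones did not, black ticks are list medians and the blue line is the median over all genes, 0.01. The red points are few in every list, and the farthest is *IZH4* at 1.72.

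In some lists many members lay on one side with none called. As background, 270 of all genes tested had an unadjusted p under 0.05 and were higher (4.73%) and 157 lower (2.75%) in edgeR. Of 44 amino acid synthesis genes under Gcn4, the activator of the general amino acid response, 12 were higher at that threshold and 41 had a positive sign, with a median of 0.10. Among them were *ARG1* (0.30), of arginine synthesis, and *HIS4* (0.21), of histidine synthesis. Of 42 nuclear genes of the respiratory chain, 11 were lower at that threshold and 6 had a positive sign, with a median of -0.08; among them were *ATP19* (-0.35) and *COX12* (-0.29). With 3C the medians of these lists were 0.07 and -0.08.

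Neither pattern was there against YFA1131. The Gcn4 list then had 0 genes at an unadjusted p under 0.05 in edgeR in either direction and a median of -0.01, and the respiratory list had 3 higher and 0 lower and a median of 0.01. The wild types themselves differed by a median of 0.09 and -0.09 in these lists, YFA1131 against YFA1130. The 56 genes of small ribosomal subunit proteins had a median of -0.05 against YFA1130 and -0.06 against YFA1131, with 1 lower at an unadjusted p under 0.05 in each comparison (edgeR). For the 21 trehalose and glycogen genes the median was 0.00 with surrogate variables and 0.22 without them.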

How the data were processed

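The deposited values are kallisto estimated counts per gene, which the authors made from trimmed single-end reads (bcl2fastq 2.20.0.422, Trimmomatic 0.38, kallisto, sacCer3/R64) and left unnormalised; 6.21% were not within 0.01 of whole, and all were rounded. Genes above 0 in every library were tested with edgeR's quasi-likelihood test in R (TMM; versions edgeR 4.0.16, limma 3.58.1, sva 3.50.0, DESeq2 1.42.0, R 4.3.3). Terms were genotype, harvest, RNA isolation and library preparation batch and 2 surrogate variables, with Benjamini-Hochberg adjustment over all genes. Levels are TMM CPM. The script was tested on simulated data. RefSeq R64 matched 6025 of 6713 IDs. Sequences are from RefSeq R64 and the study's oligos. Named were the 15 largest rises and falls passing the 10% FDR in both fits (with and without culture 3C) at a mean of at least 5 CPM and with whole counts in at least 20 libraries, up to 5 of each passing only without 3C, list members that passed, and 6 reference genes; others are marked in the text. Genes, lists and the leaving out of 3C were chosen with earlier results of these data known. Nothing says that cultures of a strain are independent beyond separate growth, so p-values measure the spread between cultures within clones. In the main fits that spread was estimated over the libraries of all 5 strains. With 1 clone a strain, the edit cannot be told apart from other differences between the clones. Alternatives were other surrogate numbers, terms, controls, filters, DESeq2, RLE, and each library left out.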

Additional observations from a re-analysis of the deposited data

Results flagged for a closer look

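Within a group of 5 libraries, a library was singled out where its gap to the nearest other, divided by the range of the group, was above 0.71, Dixon's 95% critical value. Chance flags about 1 in 20 groups of genes chosen without regard to their values. The named genes were mostly chosen with 3C left out and its values known, so that rate is no measure for the count of flags at 3C. Of 74 groups (each named gene in *OLE1(FAR)* and in YFA1130), 20 had such a library, and in 16 of them it was culture 3C of *OLE1(FAR)*. Culture 3C was the low library for *IZH4* (2.44 CPM), *YGL039W* (36.2 CPM), *MGA2* (119 CPM), *ATF1* (20.4 CPM), *TLD1* (31 CPM), *IZH2* (93.4 CPM), *FAA4* (496 CPM), *ACC1* (1580 CPM), *FAS1* (1990 CPM), *ALE1* (122 CPM), *PLB2* (109 CPM) and *IMD2* (397 CPM). It was the high library for *RRP14* (251 CPM), *COS8* (29.8 CPM), *YHL050C* (43.6 CPM) and *POX1* (28.4 CPM). The remaining 4 were *ELO1* in *OLE1(FAR)* culture 3D (139 CPM, high), and, in YFA1130, *ALE1* in culture 1A (135 CPM, low), *TMT1* in culture 1A (51.1 CPM, high) and *HEM15* in culture 1G (137 CPM, high).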

How the results depend on the processing

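The number of genes passing the FDR was 47 with all libraries and 46 without culture 3C. With all libraries and without 3C, respectively, it was 5 and 7 without surrogate variables, 7 and 8 with 1 of them, 3 and 10 with genotype only, 0 and 17 (62 and 169 at an unadjusted p under 0.05, edgeR) with only the libraries of these strains, 7 and 7 in harvest batch 3 only, and 21 and 19 with library preparation batch at 4 levels. DESeq2 called 44 and 39. With *OAF1(L63S)* culture 2A left out, 31 passed with all other libraries, and 6 without surrogate variables as well. Leaving out each library in turn gave 30 to 70 with 3C and 26 to 58 without it; lower than the full count by over 1.5 times were the fits without 3G (30) with 3C, and without 3D (27), 3E (30) or 3G (26) once 3C was left out. Without the RNA isolation batch as a replicate block 51 and 55 passed; the strains' libraries of one isolation batch had deviations that correlated at -0.28 to 0.40, so these numbers do not pair the cultures. For single genes without 3C, 618 refits kept the side of the threshold, 301 lost the call and 5 gained it. No called gene turned sign without 3C. With all libraries *URA4* did, against YFA1131 (0.10). Among genes not called, the sign turned in 13 refits of *POX1*, 6 of *SDS23* and 1 of *URA4* without 3C, and in 8 of *POX1* and 3 of *SDS23* with all libraries. Depth limits low genes most: *MRX7*, at 2.16 CPM, had a standard error of 0.18, beside a median of 0.062 over all genes.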
